A study of Mus musculus with 4 samples.

Results

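The genes described here encode the enzymes of glycolysis, the pentose phosphate pathway and glycogen metabolism, with 2 glucose transporters. They were measured in cultured mouse 4T1 cells, a mammary carcinoma line. The list held 41 genes by name, and a gene was taken as measured where a probe set of the array was annotated with its symbol and no other. Of the 41, 34 were measured, among 22180 genes in all. Aldoa, Tkt and Pgm1 were annotated together with a second gene on their probe sets, and Gpi1, Pfkfb1, Eno1 and G6pdx had no probe set under their symbol in the annotation used. These 7 genes are not analysed here.

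The shLDHA cells carried a short hairpin RNA against Ldha, which encodes subunit A of lactate dehydrogenase, and were a pool of cells selected with puromycin at 10 µg/ml. The scramble cells carried a hairpin of scrambled sequence, and the labels do not say whether they were selected, so selection and knockdown cannot be told apart. Cells of both groups grew for 24 hours in complete RPMI medium, and Affymetrix whole-transcript arrays were run on 400 ng of total RNA from each. Each group had 2 arrays, and nothing in the labels says that they came from separate cultures, so the spread behind every p-value is that between arrays and could be technical. Values are on the log2 scale as deposited, and a change is the shLDHA mean minus the scramble mean on that scale. A gene passed where its adjusted p, from a limma fit over all genes with Benjamini-Hochberg adjustment, was under 0.05.

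Glycolysis splits glucose into pyruvate, and lactate dehydrogenase then turns pyruvate into lactate and restores the NAD+ that the glyceraldehyde 3-phosphate dehydrogenase step consumes. Flux is set mainly at glucose uptake, hexokinase and phosphofructokinase, and several steps are served by isozymes from separate genes that differ in tissue and regulation. The pentose phosphate pathway branches off glucose 6-phosphate to make NADPH and ribose 5-phosphate, and glycogen is built from and broken down to glucose 1-phosphate. Tumour cell lines commonly run glycolysis to lactate also where oxygen is present.

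The targeted transcript was lower on both knockdown arrays. Ldha read 6.31 and 6.15 on the shLDHA arrays, against 6.69 and 6.96 on the scramble arrays, a log2 change of -0.59 (SE 0.12, adjusted p = 0.0390 in limma). This call was lost without scramble replicate 2 (adjusted p = 0.128), shLDHA replicate 1 (0.0965) or shLDHA replicate 2 (0.163). Arrays of 1 group correlated across genes at r = 0.997 in shLDHA and r = 0.997 in scramble, and arrays of different groups at r = 0.993. As a guide to background, 95% of 1105 olfactory receptor genes, which are silent in most tissues, had a mean over the 4 arrays under 4.19. All 6 epithelial markers looked at lay above that level in the brighter group and 3 of them, Epcam, Krt8 and Krt14, were higher in shLDHA. The other 3 did not pass, with log2 changes of 0.04 for Cdh1, 0.24 for Krt18 and -0.23 for Cldn4, which was lower on both knockdown arrays. Of the leukocyte, fibroblast and endothelial markers, 1 of 5, 1 of 5 and 0 of 4 lay above it, and the leukocyte marker Cd68 was lower in shLDHA. The mean log2 value of the leukocyte markers was 3.54 to 3.55 in shLDHA and 3.76 to 3.80 in scramble, a gap carried mostly by Cd68 (log2 change -0.91). The other 4 lay under the olfactory receptor level and did not pass, with changes from -0.25 for Ly6g to 0.15 for Cd3e. The part of these marker differences in the results below was not tested.

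Of the 34 measured genes, 6 passed (17.6%), 3 of them higher and 3 lower in shLDHA. Over all 22180 genes 6.36% passed, 3.37% higher and 2.99% lower. That background holds many dim genes: 28 of the 34 had a brighter group above the olfactory receptor level, and of the 10867 genes on the array above it 12.1% passed. With the fit limited to genes at or above the median level, 7 of 28 members passed (25%), against 25.1% of the 11090 genes tested. The share of members called is therefore not read as particular to the list. Pfkfb3, Eno3 and Hk2 fell and Pfkfb2, Pfkl and Pgam1 rose, by 1.32 to 1.72-fold. The list did not lean in 1 direction. Its median log2 change was 0.04, against 0.01 over all genes, and its median absolute change was 0.12, against 0.11. The arrays of the groups did not overlap for 22 of the 34, 13 of them higher and 9 lower in shLDHA, where 50.3% of all genes had this property, 26.2% higher and 24.0% lower. Fits of 3 arrays, with 1 left out, kept 1 or 2 of the 6 calls. The count was 1 without shLDHA replicate 1, 1 without shLDHA replicate 2, 2 without scramble replicate 1 and 2 without scramble replicate 2. Over all genes the share passing was then 1.88%, 1.67%, 2.87% and 2.82%.

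**Figure D1:**
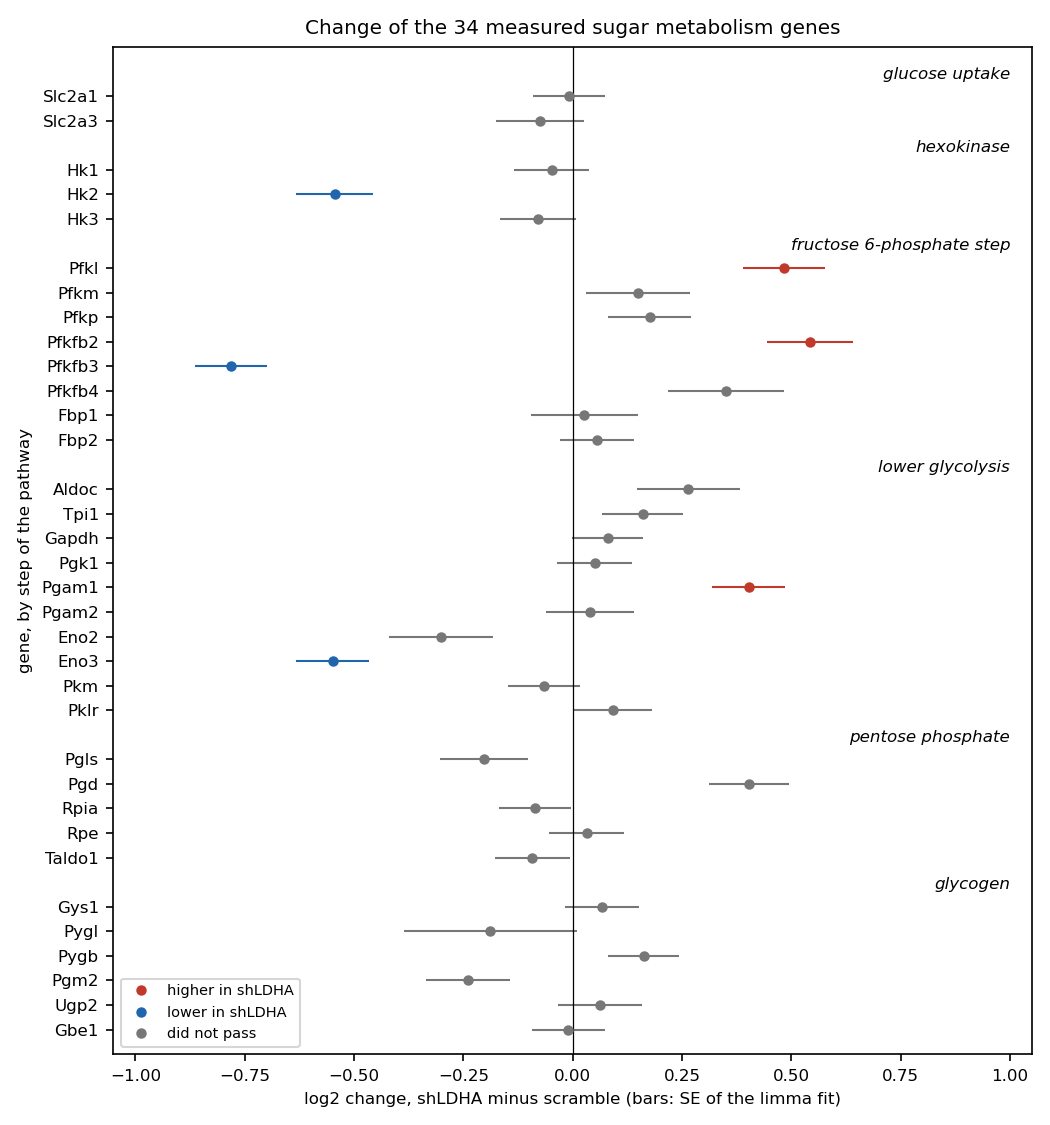
Log2 change of each of the 34 measured genes, shLDHA minus scramble, grouped by step of the pathway. Points are the limma estimates and bars their SE, with genes that passed in red (higher in shLDHA) and blue (lower). Pfkfb3 lies lowest at -0.78 and Pfkfb2 highest at 0.54, and both act at the fructose 6-phosphate step.

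The promoters of 4 of the 6 genes that passed are shown, chosen with their changes known: Hk2 and Pfkfb3 fell, while Pfkfb2 and Pfkl rose. Each runs from 250 bases before to 50 bases after a start site of RefSeq, build GRCm38.p6. Capitals mark ACGTG on either strand, 1 form of the core of the site bound by hypoxia-inducible factors, called the core here. The other form, GCGTG, was not searched or marked. Hk2 lies at chr6:82774405-82774704 on the minus strand, Pfkfb3 at chr2:11553880-11554179 and chr2:11502041-11502340 on the minus strand, Pfkfb2 start 1 at chr1:130715772-130716071 on the minus strand and Pfkl at chr10:78009758-78010057 on the minus strand.
Hk2: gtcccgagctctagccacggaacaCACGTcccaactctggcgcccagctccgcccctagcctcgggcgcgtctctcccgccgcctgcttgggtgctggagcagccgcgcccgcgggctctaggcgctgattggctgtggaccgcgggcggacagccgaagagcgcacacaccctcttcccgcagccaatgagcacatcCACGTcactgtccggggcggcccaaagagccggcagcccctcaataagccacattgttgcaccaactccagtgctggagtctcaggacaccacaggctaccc
Pfkfb3 start 1: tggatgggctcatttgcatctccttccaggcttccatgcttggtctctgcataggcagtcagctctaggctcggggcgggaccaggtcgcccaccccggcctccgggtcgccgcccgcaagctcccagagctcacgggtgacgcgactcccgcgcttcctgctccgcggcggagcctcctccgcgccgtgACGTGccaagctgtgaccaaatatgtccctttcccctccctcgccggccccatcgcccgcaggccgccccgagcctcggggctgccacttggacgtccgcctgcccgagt
Pfkfb3 start 2: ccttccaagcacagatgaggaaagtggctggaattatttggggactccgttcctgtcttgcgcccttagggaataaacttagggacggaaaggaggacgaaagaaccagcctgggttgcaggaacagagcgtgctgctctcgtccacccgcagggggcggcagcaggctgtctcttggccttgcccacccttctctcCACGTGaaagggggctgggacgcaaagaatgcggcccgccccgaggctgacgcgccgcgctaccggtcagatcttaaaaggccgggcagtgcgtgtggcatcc
Pfkfb2 start 1: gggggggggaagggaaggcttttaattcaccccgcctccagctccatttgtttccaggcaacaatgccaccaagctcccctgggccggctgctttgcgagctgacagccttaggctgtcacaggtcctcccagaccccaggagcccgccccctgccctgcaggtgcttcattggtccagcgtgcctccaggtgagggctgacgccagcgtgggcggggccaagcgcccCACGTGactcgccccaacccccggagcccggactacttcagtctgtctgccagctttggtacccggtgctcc
Pfkl: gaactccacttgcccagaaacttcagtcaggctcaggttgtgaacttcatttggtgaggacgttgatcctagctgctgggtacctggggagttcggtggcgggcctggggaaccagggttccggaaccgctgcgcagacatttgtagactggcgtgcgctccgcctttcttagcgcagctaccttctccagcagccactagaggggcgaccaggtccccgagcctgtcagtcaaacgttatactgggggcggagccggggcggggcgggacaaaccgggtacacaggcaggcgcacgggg

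Hk2 held the ACGTG core 2 times, Pfkfb3 start 1 held it 1 time, and Pfkl held it 0 times in this window. The printed windows of Pfkl, Pfkfb3 start 2 and Pfkfb2 start 1 do hold GCGTG, the form that was not searched. Pfkfb3 start 2 and Pfkfb2 start 1 each held 1 copy of the E-box CACGTG, which contains the core on both strands and so counts as 2 matches. Pfkfb2 has 2 further starts in the table, not shown, of which start 2 held the core 0 times and start 3 held it 1 time, without the E-box. Of the genes that passed and are not shown, Eno3, which fell, held the core 0 times, and Pgam1, which rose, held it 1 time. Among the genes that rose and among those that fell, the core was thus present beside some and absent beside another. Among the 33 measured members with a promoter in the table, 20 of 45 windows (44.4%) held the core, against 19.6% of 32851 windows of all genes and 26.0% of 10829 windows of genes above the olfactory receptor level. The E-box was in 4 of the 45 (8.89%), against 7.15% and 10.3%. These are counts of letters, with no test, and no binding was measured.

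The glucose transporter genes showed no detectable change. Slc2a1, which encodes the basal transporter GLUT1, read 9.54 and 9.53 on the shLDHA arrays, against 9.52 and 9.56 on the scramble arrays. The arrays overlapped, and the log2 change of -0.01 had a 95% confidence interval of -0.20 to 0.19. Slc2a3, which encodes the high-affinity transporter GLUT3, read 2.62 and 2.63 in shLDHA and 2.59 and 2.81 in scramble, under the olfactory receptor level in both groups, where signals are compressed and a fold can understate a change.

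Of the hexokinases, which trap glucose in the cell as glucose 6-phosphate, only Hk2 passed. Hk2, the inducible isozyme of muscle, fat and many tumours, read 7.80 and 7.78 in shLDHA, against 8.27 and 8.40 in scramble. Both shLDHA arrays were below both scramble arrays, and Hk2 was 1.46-fold lower (log2 change -0.54, SE 0.09, adjusted p = 0.0201). The call was lost without scramble replicate 2 (adjusted p = 0.0925), shLDHA replicate 1 (0.0870) or shLDHA replicate 2 (0.0966). Hk1, the isozyme found in most tissues, read 7.53 and 7.57 in shLDHA and 7.64 and 7.55 in scramble. Its groups overlapped, with a log2 change of -0.05 and an interval of -0.25 to 0.16. Hk3 was under the olfactory receptor level, at 3.02 and 2.94 in shLDHA and 3.10 and 3.01 in scramble. The log2 difference between Hk2 and Hk1 on the same array was 0.27 and 0.21 in shLDHA, against 0.63 and 0.85 in scramble. This balance was lower on both knockdown arrays by 0.50 (SE 0.12), which mostly restates the fall of Hk2, as Hk1 changed by -0.05. An exact two-sided permutation test of 2 arrays against 2 cannot give a p below 0.333, which was the value here (0.481 adjusted over the 13 isozyme pairs compared).

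**Figure D2:**
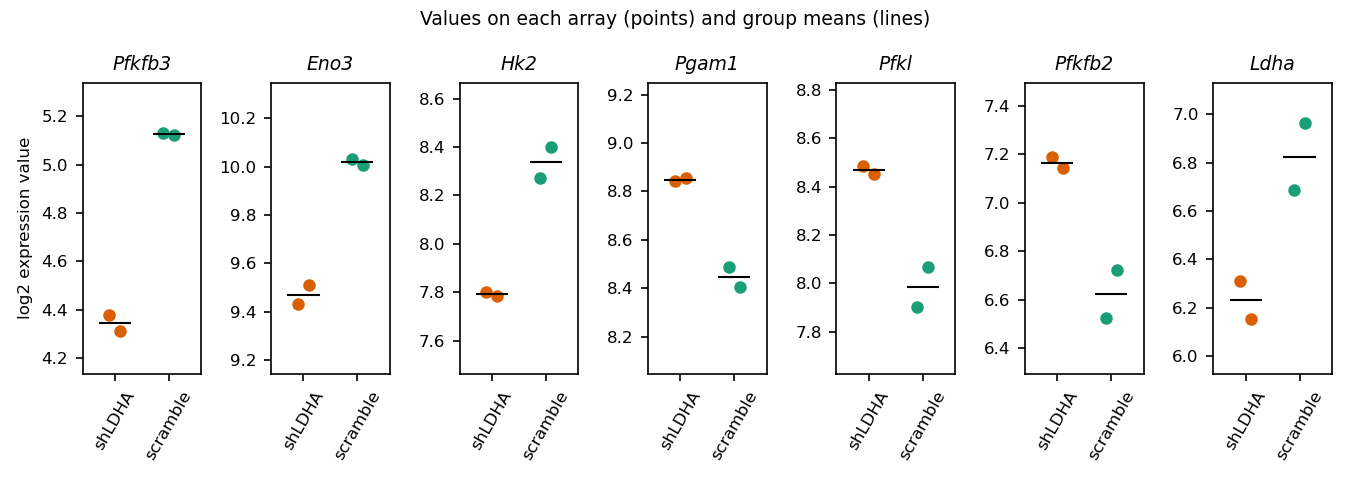
Log2 expression values of the 6 genes that passed and of Ldha on each array, with shLDHA on the left of each panel and scramble on the right. Points are arrays, lines are group means, and every panel spans the same height on its own log2 axis. In none of the 7 panels do the groups overlap. The 6 genes were picked by the same comparison, and the groups do not overlap for 50.3% of all genes.

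At the fructose 6-phosphate step 3 of 8 measured genes passed, Pfkl and Pfkfb2 higher and Pfkfb3 lower. Of all genes 6.36% passed, and of those above the olfactory receptor level 12.1%. With so few genes, the share is not read as particular to this step. Phosphofructokinase 1, which commits the sugar to glycolysis, is a tetramer of liver, muscle and platelet type subunits. Pfkl, the liver type gene, read 8.49 and 8.45 in shLDHA, against 7.90 and 8.07 in scramble. Both knockdown arrays were above both control arrays, a rise of 1.40-fold (log2 change 0.48, SE 0.09, adjusted p = 0.0342). The call was lost without any 1 of the 4 arrays, with an adjusted p from 0.0566 (without scramble replicate 2) to 0.146 (without scramble replicate 1). Pfkp, the platelet type gene, read 8.79 and 8.95 in shLDHA and 8.73 and 8.66 in scramble, and Pfkm, the muscle type gene, 5.30 and 5.48 in shLDHA and 5.11 and 5.37 in scramble. Neither passed, with log2 changes of 0.18 (interval -0.05 to 0.40) and 0.15 (interval -0.14 to 0.44). On the same array, the Pfkl value exceeded the Pfkm value by 3.19 and 2.97 in shLDHA, against 2.79 and 2.70 in scramble. The shift of 0.33 (SE 0.12) was in the same direction on both arrays and could not reach 0.05 in the exact test (p = 0.333). Against the brighter Pfkp, the log2 difference was -0.30 and -0.50 in shLDHA and -0.83 and -0.59 in scramble. That shift was 0.31 (SE 0.15), with the same exact p.

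The bifunctional enzymes that make and break down fructose 2,6-bisphosphate, the strongest known activator of phosphofructokinase 1, did not move together, since Pfkfb3 fell and Pfkfb2 rose. Pfkfb3, the isozyme with the highest ratio of kinase to phosphatase activity, read 4.38 and 4.31 in shLDHA, against 5.13 and 5.12 in scramble. It had the largest change of the 34 genes, 1.72-fold lower (log2 change -0.78, SE 0.08, adjusted p = 0.00510), and the shLDHA values lay just above the olfactory receptor level, so the fall may be understated. Pfkfb2, the isozyme first known from heart, read 7.19 and 7.14 in shLDHA, against 6.53 and 6.72 in scramble. It rose 1.46-fold (log2 change 0.54, SE 0.10, adjusted p = 0.0274), the largest rise among the 34. The call was lost without scramble replicate 1 (adjusted p = 0.113), shLDHA replicate 1 (0.115) or shLDHA replicate 2 (0.106), while Pfkfb3 passed without any 1 array.

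Pfkfb4, known from testis and from tumours under hypoxia, read 4.91 and 5.11 in shLDHA, against 4.50 and 4.82 in scramble. Its arrays did not overlap but it did not pass (log2 change 0.35, SE 0.13, adjusted p = 0.193). The log2 difference of Pfkfb3 minus Pfkfb2 on the same array was -2.81 and -2.83 in shLDHA, against -1.39 and -1.60 in scramble. The shift of -1.32 (SE 0.10) was the largest of the 13 isozyme pairs. It had to be, since Pfkfb3 had the lowest and Pfkfb2 the highest change of the 34 genes. For Pfkfb3 minus Pfkfb4 the log2 difference was -0.54 and -0.79 in shLDHA, against 0.63 and 0.30 in scramble, a shift of -1.13 (SE 0.21). Both shifts had an exact p of 0.333, the smallest the design allows. The fructose bisphosphatase genes Fbp1 and Fbp2, whose enzymes reverse the phosphofructokinase step in gluconeogenesis, were under the olfactory receptor level on all 4 arrays, between 2.80 and 3.19.

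**Figure D3:**
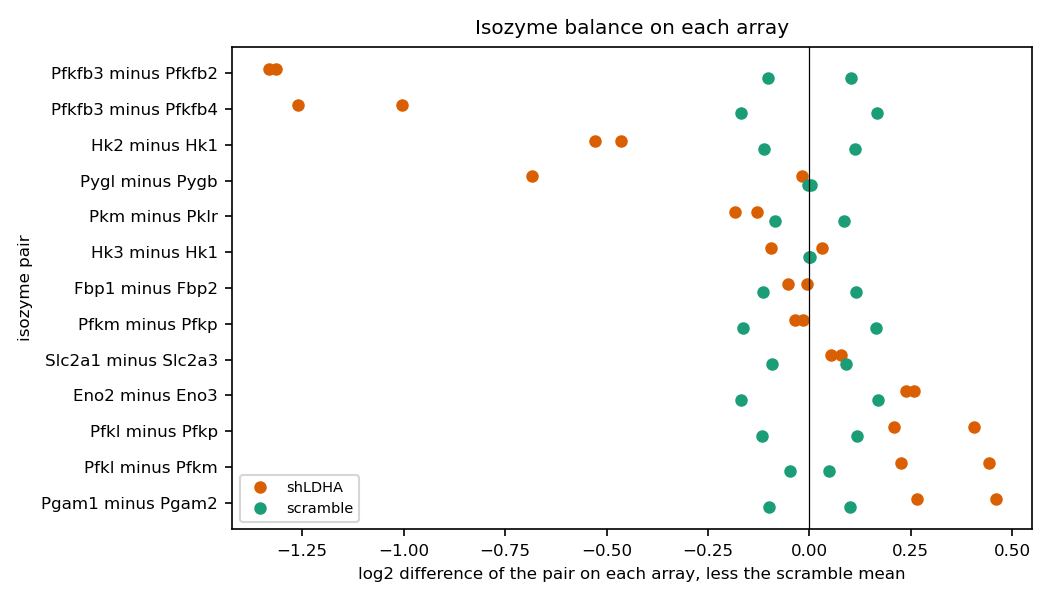
Log2 difference between the 2 genes of each of 13 isozyme pairs on each array, less the scramble mean of the pair, with shLDHA arrays in orange above scramble arrays in green. The shLDHA arrays of Pfkfb3 minus Pfkfb2 lie near -1.32 and those of Pfkfb3 minus Pfkfb4 near -1.13, below the scramble arrays of the same pairs.

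In lower glycolysis, 2 of 10 measured genes passed, 1 in each direction. The share passing was 6.36% over all genes and 12.1% over those above the olfactory receptor level. Pgam1, the phosphoglycerate mutase of most tissues, read 8.84 and 8.86 in shLDHA, against 8.49 and 8.41 in scramble. It rose 1.32-fold (log2 change 0.40, SE 0.08, adjusted p = 0.0422). The call was lost without any 1 of the 4 arrays, with an adjusted p from 0.113 (without scramble replicate 1) to 0.187 (without scramble replicate 2). A second Pgam1 probe set, with 6.62 and 6.96 in shLDHA and 6.33 and 6.51 in scramble, gave a log2 change of 0.37 (SE 0.13) and did not pass, and the mean of both gave an adjusted p of 0.0689. Pgam2, the muscle isozyme, was under the olfactory receptor level, at 2.95 and 2.77 in shLDHA and 2.77 and 2.88 in scramble.

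Eno3 encodes beta-enolase, the enolase isozyme known from muscle. It read 9.43 and 9.51 in shLDHA, against 10.03 and 10.01 in scramble. Both knockdown arrays were lower, by 1.46-fold (log2 change -0.55, SE 0.08, adjusted p = 0.0167). The call was lost without any 1 of the 4 arrays, with an adjusted p from 0.0608 (without scramble replicate 2) to 0.0843 (without shLDHA replicate 1). None of the 4 skeletal muscle markers looked at (Acta1, Ckm, Myh1 and Myh4) lay above the olfactory receptor level in either group. Eno2, the neuronal isozyme, read 5.25 and 5.31 in shLDHA, against 5.43 and 5.73 in scramble. It was lower on both knockdown arrays without passing (log2 change -0.30, SE 0.12, adjusted p = 0.209). Eno1, the enolase gene of most tissues, was among the genes not analysed.

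The remaining 6 measured genes of lower glycolysis did not pass either. Gapdh, the glyceraldehyde 3-phosphate dehydrogenase gene, read 12.20 and 12.21 in shLDHA and 12.14 and 12.11 in scramble, a log2 change of 0.08 with an interval of -0.11 to 0.27. Its 2 other probe sets with a single symbol changed by 0.08 and -0.06, and 8 further ones carried a second gene symbol and were not used. Pgk1, the phosphoglycerate kinase gene, read 11.13 and 11.20 in shLDHA and 11.15 and 11.07 in scramble, and its groups overlapped (log2 change 0.05). Pkm, the pyruvate kinase gene of most proliferating cells, read 11.42 and 11.47 in shLDHA and 11.50 and 11.53 in scramble, a log2 change of -0.07 with an interval of -0.26 to 0.13. The intervals of these 3 genes leave room for changes of up to 0.27 on the log2 scale.

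Tpi1, the triose phosphate isomerase gene, read 10.28 and 10.44 in shLDHA, against 10.22 and 10.17 in scramble, and Aldoc, the brain type aldolase gene, 6.20 and 6.50 in shLDHA, against 6.07 and 6.10 in scramble. Both were higher on both knockdown arrays without passing, with log2 changes of 0.16 (SE 0.09, adjusted p = 0.394) and 0.26 (SE 0.12, adjusted p = 0.260). Pklr, the pyruvate kinase gene of liver and red cells, stood close to the olfactory receptor level in both groups (log2 change 0.09).

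None of the 5 measured pentose phosphate genes passed, and 1 of them, Pgd, had an unadjusted p under 0.05, as did 21.5% of all genes. Pgd encodes 6-phosphogluconate dehydrogenase, an NADPH-producing step of the oxidative branch. It read 8.86 and 8.88 in shLDHA, against 8.54 and 8.39 in scramble, and lay just beyond the threshold (log2 change 0.40, SE 0.09, adjusted p = 0.0530). Pgls, the 6-phosphogluconolactonase gene of the step before, read 5.67 and 5.78 in shLDHA, against 5.83 and 6.02 in scramble. Its log2 change of -0.20 (SE 0.10, adjusted p = 0.320) did not pass, and a dimmer second probe set changed by -0.01. The genes of the non-oxidative branch lay close to 0, with log2 changes of -0.09 for Rpia, the ribose 5-phosphate isomerase gene, 0.03 for Rpe, the ribulose phosphate epimerase gene, and -0.09 for Taldo1, the transaldolase gene.

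None of the 6 measured glycogen genes passed, and 1 of them, Pgm2, had an unadjusted p under 0.05, where 21.5% of all genes did. Pgm2, a phosphoglucomutase family gene that older mouse annotation called Pgm1, read 8.43 and 8.56 in shLDHA, against 8.80 and 8.67 in scramble (log2 change -0.24, SE 0.10, adjusted p = 0.213). Of the phosphorylases, which release glucose 1-phosphate from glycogen, the brain type gene Pygb read 7.13 and 7.14 in shLDHA, against 6.99 and 6.95 in scramble. It was higher on both knockdown arrays without passing (log2 change 0.16, SE 0.08, adjusted p = 0.321). The liver type gene Pygl, under the olfactory receptor level, had the widest spread of the list, with 3.41 and 2.76 in shLDHA and 3.29 and 3.25 in scramble. Gys1, the glycogen synthase gene of most tissues, changed by 0.07, Ugp2, whose enzyme makes UDP-glucose, by 0.06 and the branching enzyme gene Gbe1 by -0.01, and none had an interval beyond -0.21 to 0.29.

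**Figure D4:**
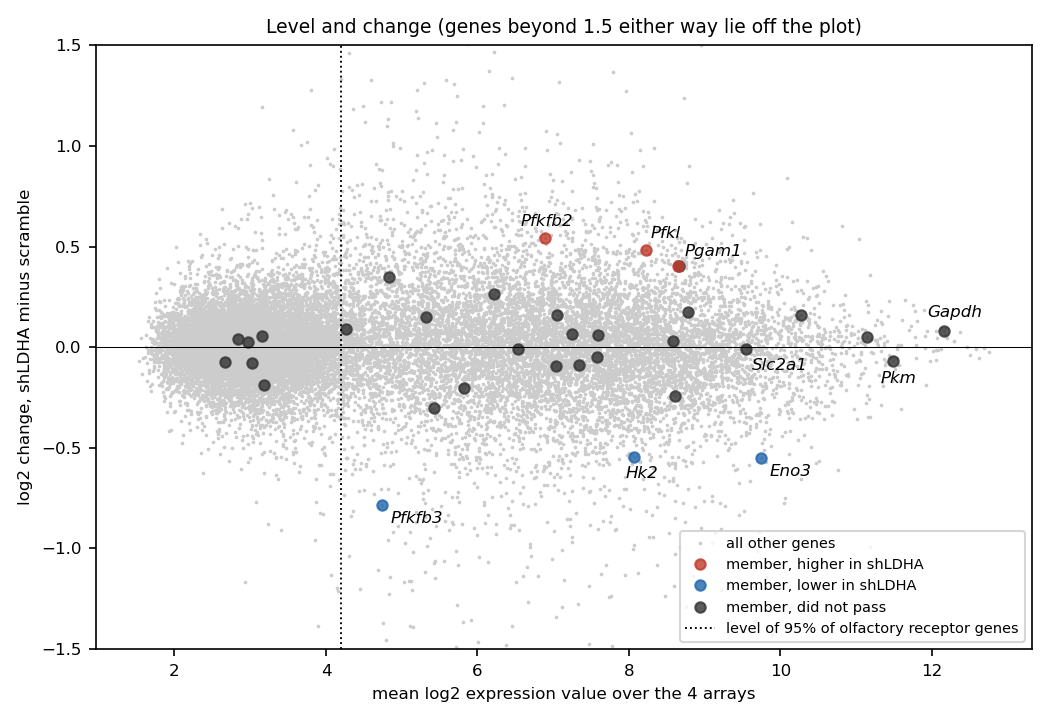
Mean log2 expression value over the 4 arrays (horizontal) against the log2 change, shLDHA minus scramble (vertical), for all genes in grey and the 34 measured genes in colour. The dotted line marks 4.19, the level of 95% of olfactory receptor genes. The 6 genes left of it changed by -0.19 to 0.06, and Pfkfb3, close to the line, lies lowest at -0.78.

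Other genes of sugar handling outside the list were measured for comparison, and 4 of 54 passed (7.41%, against 6.36% of all genes), 3 higher and 1 lower. Pck2, the mitochondrial PEP carboxykinase gene, read 8.91 and 8.92 in shLDHA, against 8.39 and 8.40 in scramble (log2 change 0.52, SE 0.08, adjusted p = 0.0171). G6pc3, a glucose 6-phosphatase gene of most tissues, read 6.59 and 6.78 in shLDHA, against 6.15 and 6.02 in scramble (log2 change 0.60, SE 0.10, adjusted p = 0.0233). Rbks, the ribokinase gene, read 5.76 and 5.81 in shLDHA, against 5.19 and 5.40 in scramble (log2 change 0.49, adjusted p = 0.0407). Gyg, the gene of glycogenin, the protein primer of glycogen, read 7.75 and 7.80 in shLDHA, against 8.17 and 8.22 in scramble (log2 change -0.42, adjusted p = 0.0373). Next in order of p, without passing, were Adpgk, an ADP-dependent glucokinase gene (log2 change -0.35, adjusted p = 0.0652), and the sedoheptulokinase gene Shpk (0.34, adjusted p = 0.0702). Without 1 array the count of these other genes was 1 (without scramble replicate 1) or 0, and at an unadjusted p under 0.05 on all arrays it was 15 of 54, where 21.5% of all genes had such a p.

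How firmly a call stood differed between the 6 genes. With the replicate number as a block, Pfkfb3, Eno3 and Hk2 passed, while Pfkfb2, Pfkl and Pgam1 did not. That setting is not among the 12 counted next, most of which could not change the direction of these 6 genes. Over 12 alternative settings of normalization, filter, probe choice, variance model and left-out array, Pfkfb3 passed in 12, with an adjusted p from 7.20e-04 to 0.0411 and a log2 change from -0.81 to -0.75. Hk2 and Pfkfb2 passed in 9 of 12, Eno3 and Pfkl in 8 and Pgam1 in 7, and their direction was the same in each. Pgd passed in 4 of 12, with an adjusted p from 0.00319 to 0.228.

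**Figure D5:**
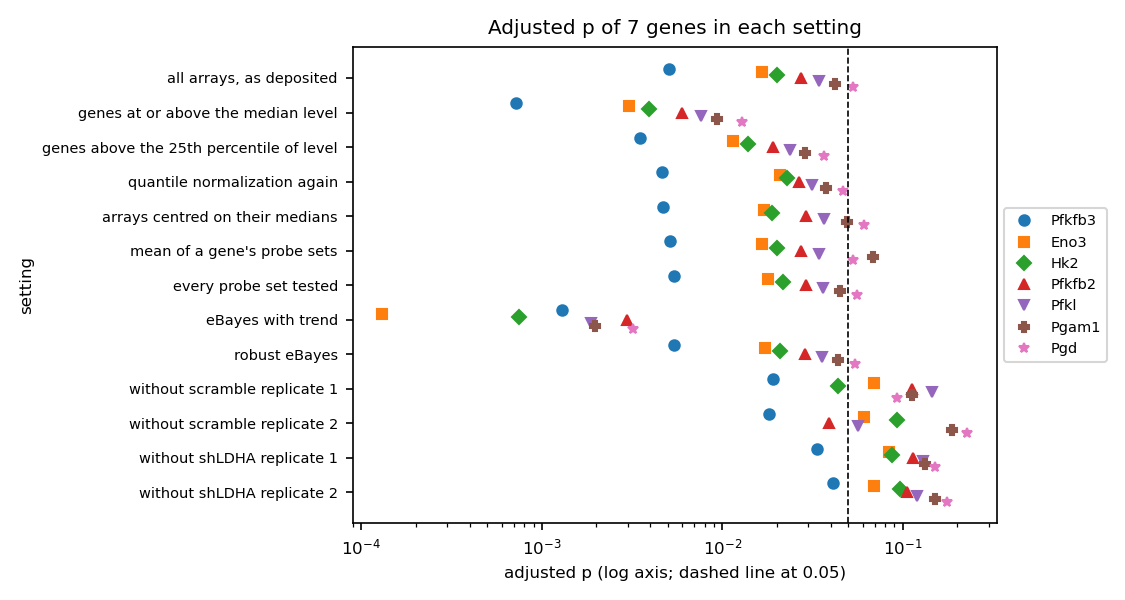
Adjusted p (log axis) of the 6 genes that passed and of Pgd with all arrays as deposited and in 12 alternative settings, each marker shape a gene. The dashed line is at 0.05. Pfkfb3 stays left of the line in every row, while the rows without 1 array move most of the other markers to its right.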

How the data were processed

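The authors deposited log2 expression values for 4 arrays, 2 per group, and the submitters' processing notes list RMA and R 3.4.0 as the tools. The label protocol names biotin labelling with a whole-transcript kit. The RMA settings and annotation version are not given in the sources used here. No scanner output was analysed here. The values ran from 1.23 to 12.91 over 41345 probe sets, and 0 columns were left out. Groups and replicate numbers came from the sample titles.

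A platform annotation named a single gene on 23521 probe sets, more than 1 on 1814 and none on 16010, and single-gene sets alone were used. Of these, 23328 matched a gene of a RefSeq table of GRCm38.p6, which changed 0 symbols. The probe set with the highest mean was kept for the 1082 genes with more than 1, giving 22180 genes, and dim genes were kept. Arrays have no read depth, and the number of arrays limits the precision.

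The groups were compared in R 4.3.3 with limma 3.58.1 (lmFit, then eBayes, 2 residual and 4.52 prior degrees of freedom) over all 4 arrays with no covariate, two-sided. SE is that of the fit, or, for an isozyme difference, of the 4 within-array differences. Of 18 isozyme pairs set out, 13 had both genes measured. The code was tested on simulated data. The members, the other sugar-handling genes and the markers were chosen with earlier results of these data known. Any member could be named, and of the other sugar-handling genes those past the threshold and the 6 with the smallest p. Promoters are from RefSeq tables, build GRCm38.p6, matched by gene ID. Alternatives tried were the replicate number as a block, 2 filters on level, quantile normalization again, centring on array medians, the mean of a gene's probe sets, every probe set, eBayes with trend or robust, each array left out, and a threshold of 0.1. Figures were drawn with matplotlib 3.10.9.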

Additional observations from a re-analysis of the deposited data

How the results depend on the processing

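Pfkfb3, Eno3, Hk2, Pfkfb2, Pfkl and Pgam1 kept their direction in every alternative, but most alternatives could not change it. The block, the filters, the variance models, every probe set and the threshold of 0.1 leave the log2 change as it is. The groups of these genes do not overlap, so leaving out 1 array cannot reverse a sign. The count of the 34 genes that passed was 5 to 7 in the settings with all 4 arrays and no block, and 1 to 2 with 1 array left out. With the replicate number as a block it was 3, all lower (Pfkfb3, Eno3 and Hk2). The deviations of same-numbered arrays from their group means had a correlation of -0.03 across genes. The labels do not say whether the numbers pair the arrays, and whether same-numbered arrays shared a culture or batch was not tested. Over all genes the count, 1410 on all arrays, was 838 with the block, 2783 among the 11090 genes at or above the median level (25.1%, against 7 of 28 members, 25%), 2806 with an eBayes trend, 2391 at a threshold of 0.1 and 370 to 636 with 1 array left out. Of the 54 other sugar-handling genes, 4 passed on all arrays and 1 with the block. Only 29 of them lay at or above the median level, and 12 of these passed (41.4%, against 25.1% of all genes tested there). With an eBayes trend 9 of 54 passed (16.7%, against 12.7% of all genes). At a threshold of 0.1 it was 10 of 54 (18.5%, against 10.8%). A fit on 3 arrays has 1 residual degree of freedom, as does the fit with the block. The cause of the shifts was not tested. Genes that did not pass changed sign near 0. Slc2a1 (-0.01) was 0.011 after quantile normalization again, 0.0013 for the mean of its probe sets and -0.028 to 0.010 with 1 array left out. With 1 array left out, log2 changes ran from -0.19 to 0.035 for Slc2a3, -0.050 to 0.13 for Pgam2, -0.13 to 0.19 for Fbp1, -0.0085 to 0.071 for Rpe, -0.51 to 0.14 for Pygl, -0.029 to 0.15 for Ugp2 and -0.050 to 0.030 for Gbe1. Isozyme differences ran from -0.025 to 0.16 for Slc2a1 minus Slc2a3, -0.094 to 0.031 for Hk3 minus Hk1, -0.19 to 0.14 for Pfkm minus Pfkp and -0.14 to 0.086 for Fbp1 minus Fbp2. Signals near the olfactory receptor level are compressed, which limits what can be said of the 6 dim genes.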
